A study of Mus musculus with 12 samples.

Results

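Acute phase proteins are described here through the mRNAs of 10 mouse genes: the serum amyloid A genes Saa1, Saa2 and Saa3, the lipocalin Lcn2, the orosomucoids Orm1 and Orm2, haptoglobin (Hp), hemopexin (Hpx), the protease inhibitor Serpina3n and C-reactive protein (Crp). They were chosen by gene symbol, and each had 1 row among the 54532 genes of the deposited expression table. The libraries came from primary mouse hepatocytes, isolated liver parenchymal cells, taken at 6 weeks of age. Control mice carried the floxed G3bp1 allele (G3bp1-Flox, here Flox) and the others had lost G3bp1, which encodes a stress granule protein, in hepatocytes only (G3bp1-HKO, here HKO). Cells of each genotype received BSA or PA, names that the labels do not spell out, which made 4 groups of 3 libraries: Flox BSA, Flox PA, HKO BSA and HKO PA. The sources used here do not give the dose or duration of treatment, the driver of the deletion, or whether the libraries of a group came from separate mice. The p-values below measure only the spread between these libraries.

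The acute phase response is the change in the blood plasma that follows infection or injury. Macrophages release interleukin-1, tumour necrosis factor and interleukin-6, which act on hepatocytes through NF-kB, C/EBP factors and STAT3, with glucocorticoids as co-inducers. Positive acute phase proteins such as serum amyloid A, haptoglobin and orosomucoid then rise in plasma, while negative ones such as retinol-binding protein fall. Which of them respond strongly differs between species, and in the mouse Crp is only a minor reactant.

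Levels are in FPKM, fragments per kilobase of gene length and per 1 M fragments of the library size that the authors used. That size, computed from the values, was 16.9 M to 19.1 M in Flox libraries and 13.4 M to 17.3 M in HKO libraries. It was above the reads in genes in every Flox library and below them in every HKO library but HKO PA library 2. FPKM thus hold a scaling that differs between genotypes, which the limma-voom alternative below does not use. Reads in genes numbered from 15.0 M to 18.4 M per library, and a member held from 349 reads (Saa3) to 289252 reads (Hpx) in a library. In the Flox libraries G3bp1 read 37.7 to 45.7 FPKM and in the HKO libraries 7.03 to 8.50 FPKM, which goes with the labels. Of 12 hepatocyte markers, 11 had a mean of at least 1 FPKM over all libraries, and the exception was Pck1. Markers of other cells were also present in Flox: the 16 macrophage markers summed to 1931 to 2365 FPKM there and to 86.1 to 158 FPKM in HKO, and the 12 neutrophil markers summed to 19.2 to 26.8 FPKM in Flox and 0.208 to 0.738 FPKM in HKO. Of the 12 neutrophil markers, 9 averaged under 1 FPKM in each Flox group, so their sum rests on few genes. In bulk RNA, fewer cells of a type and less RNA per cell cannot be told apart. Genotype and the level of these markers moved together in all 12 libraries, so their part in the genotype differences below was not tested. The 10 members together took 2.80% to 3.22% of the reads in genes in the 6 Flox libraries and 1.26% to 1.78% in the 6 HKO libraries. Mitochondrially encoded genes took 2.96% to 4.34% of reads in Flox BSA and 4.10% to 8.20% in HKO BSA, and 2.21% to 2.40% in Flox PA and 5.42% to 8.16% in HKO PA. The part of this share in the results was not tested.

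The serum amyloid A genes lie together on chromosome 7 (GRCm38): Saa3 (ENSMUSG00000040026) at chr7:46711998-46715700 and Saa1 (ENSMUSG00000074115) at chr7:46740497-46742980, both on the minus strand, and Saa2 (ENSMUSG00000057465) at chr7:46751790-46754313 on the plus strand. Orm1 (ENSMUSG00000039196, chr4:63344560-63348163) and Orm2 (ENSMUSG00000061540, chr4:63362449-63365878) are neighbours on the plus strand of chromosome 4. The promoters of the serum amyloid A genes and of Orm2 are shown, with near-identical ones (Saa1 and Saa2) and a diverged one (Saa3). The part of promoter sequence in the expression differences below was not tested. They are RefSeq windows of GRCm38.p6 that end at the annotated start, read 5′ to 3′ on the gene's strand and cut where a coding transcript of GENCODE M21 begins. Saa1 is chr7:46742981-46743230, Saa2 is chr7:46751583-46751789, Saa3 is chr7:46715701-46715926 and Orm2 is chr4:63362199-63362448. Capitals mark matches, on either strand, to the C/EBP element TTNNGNAA.
Saa1: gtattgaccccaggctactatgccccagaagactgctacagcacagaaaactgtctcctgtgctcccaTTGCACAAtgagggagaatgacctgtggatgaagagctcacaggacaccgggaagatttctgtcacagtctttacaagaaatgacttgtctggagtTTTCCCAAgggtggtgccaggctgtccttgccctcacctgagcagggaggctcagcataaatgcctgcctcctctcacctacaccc
Saa2: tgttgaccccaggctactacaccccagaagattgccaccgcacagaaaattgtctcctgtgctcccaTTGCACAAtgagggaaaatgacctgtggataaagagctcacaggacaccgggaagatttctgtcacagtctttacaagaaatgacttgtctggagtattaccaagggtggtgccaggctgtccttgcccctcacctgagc
Saa3: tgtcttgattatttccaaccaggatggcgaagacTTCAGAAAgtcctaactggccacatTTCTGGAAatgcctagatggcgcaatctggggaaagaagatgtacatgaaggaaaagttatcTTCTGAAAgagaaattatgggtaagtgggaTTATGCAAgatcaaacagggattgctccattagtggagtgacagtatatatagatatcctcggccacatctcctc
Orm2: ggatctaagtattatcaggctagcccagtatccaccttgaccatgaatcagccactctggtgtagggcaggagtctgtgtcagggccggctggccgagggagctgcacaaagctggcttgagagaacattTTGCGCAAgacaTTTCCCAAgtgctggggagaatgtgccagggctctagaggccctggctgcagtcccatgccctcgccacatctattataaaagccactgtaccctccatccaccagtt
Over the full 250-base windows, Saa1 and Saa2 were identical at 94.8% of aligned positions (238 of 251), and Saa1 and Saa3 at 52.5%. Saa3 and Lcn2 were identical at 50.5%, Saa3 and Orm2 at 54.2%, and Lcn2 and Orm2 at 51.4%. Saa1 held 2 C/EBP matches, Saa2 1, Saa3 4 and Orm2 2. The Saa1 match that Saa2 lacks lies 86 to 79 bases before the start. Windows were found for 8 members, not for Orm1 and Hp, and all 8 held at least 1 C/EBP match (Lcn2 and Crp 1 each, Hpx and Serpina3n 2 each), against 36.8% of the 32851 windows in the RefSeq table. No member window held the STAT element TTCNNNGAA, the type 2 IL-6 element CTGGGAA or the NF-kB consensus, which were in 7.02%, 9.1% and 7.25% of all windows. With C/EBP matches only, no overlap between motifs could arise. The Lcn2 window lies inside an annotated coding transcript of the gene and is not shown. A match here is a run of letters, not a measured binding site.

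In Flox cells given BSA, hemopexin mRNA was the most abundant of the 10 by far. Hpx, which carries free heme in plasma, averaged 9351 ± 288 FPKM (SD, n = 3) and ranked 2 among all protein-coding genes. Orm1 (1730 ± 289 FPKM) and Lcn2 (1630 ± 134 FPKM) came next, with libraries that overlapped, at ranks 24 and 26. Hp followed at 1084 ± 40.2 FPKM, Saa1 at 854.6 ± 25.0 FPKM and Saa2 at 730.3 ± 14.3 FPKM, none of which overlapped with its neighbours in this order. Orm2 (356 ± 63.9 FPKM), Serpina3n (160.5 ± 20.3 FPKM), Saa3 (74.2 ± 12.5 FPKM) and Crp (15.8 ± 3.03 FPKM, rank 2711) were lower. The order depends in part on gene length: the authors' divisor is 2623 bases for Lcn2 and 2478 for Saa1, where the median annotated coding transcript has 915 and 609 bases. Per kilobase of that coding transcript, Lcn2 stood at 4673 and Saa1 at 3477, above Orm1 at 1730. Comparisons of a gene between groups do not involve this divisor.

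**Figure D1:**
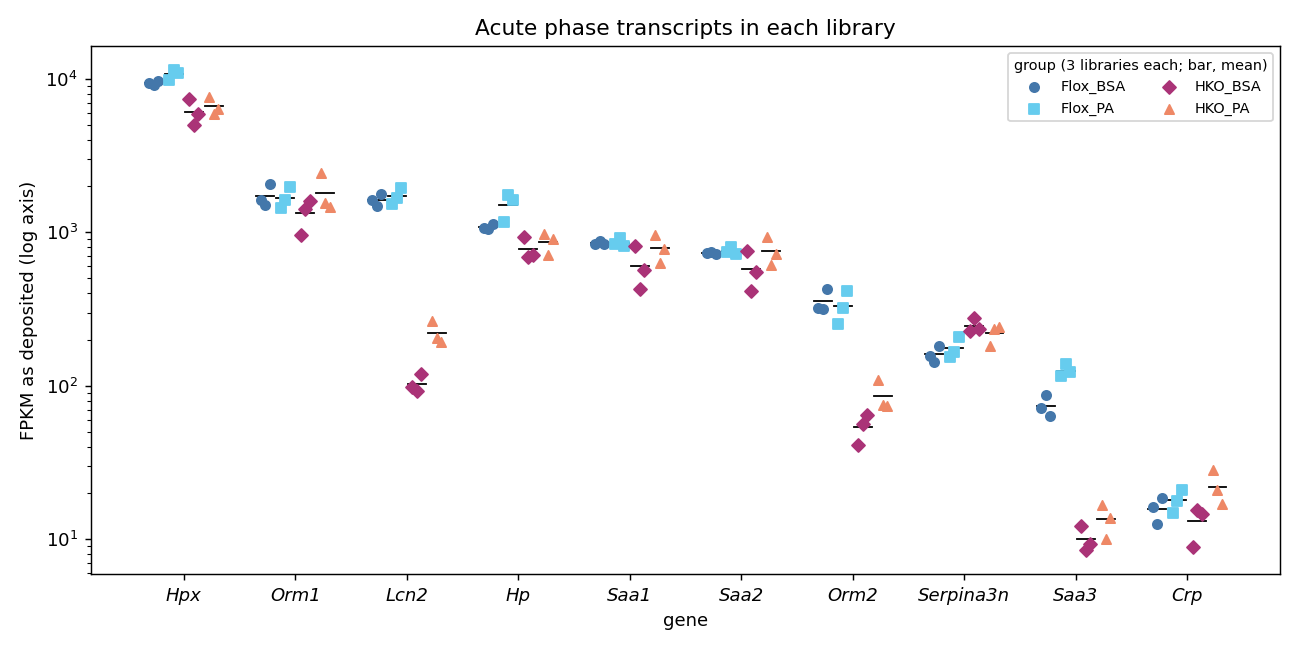
FPKM of each of the 10 acute phase genes (vertical log axis) in the 3 libraries of each group (points) with the group mean (bar). Lcn2, Saa3 and Orm2 sit far lower in HKO than in Flox, whereas the Orm1 libraries overlap between all 4 groups.

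Without G3bp1, some acute phase mRNAs were far lower and others did not pass the test. In BSA, 4 of the 10 genes fell in HKO relative to Flox (Lcn2, Saa3, Orm2 and Hpx) and 1 rose (Serpina3n). Over the 9743 genes tested, 20.5% passed in this comparison, 10.8% lower and 9.63% higher. In PA, 5 fell (Saa3, Lcn2, Orm2, Hp and Hpx) and none rose, where 35.7% of all genes passed, 18.8% lower and 16.9% higher. A gene passed at an adjusted p under 0.05 in limma, fitted to log2(FPKM + 1) of all 12 libraries. Log2 differences below are on that scale, with the standard error of the fit. The median log2 difference over the 10 members was -0.52 in BSA, against 0.04 over all genes tested, and -0.42 in PA, against 0.00. HKO and Flox libraries did not overlap for 7 members in BSA, 6 lower and 1 higher in HKO, where the share over all genes tested was 37.7% (18% lower and 19.7% higher). In PA they did not overlap for 5 members, all lower, where the share was 52% (26% lower).

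Between PA and BSA, 1 member passed in 1 genotype. In Flox, 0 of 10 passed by limma (2 at an unadjusted p under 0.05, and 1, Saa3, with limma-voom on reads computed from the FPKM), where 2.21% of all genes passed. In HKO only Lcn2 rose and the other 9 did not pass, where 2.94% of all genes passed, 1.68% higher and 1.25% lower. PA and BSA libraries did not overlap for 3 members in Flox (Saa3, Hp and Hpx) and for 3 in HKO (Lcn2, Orm2 and Crp), each of them higher in PA. Over all genes that share was 39% in Flox (22.1% higher) and 18.2% in HKO (9.1% higher). The interaction, the PA effect in HKO minus that in Flox, was passed by 0 of 10 members (2 at an unadjusted p under 0.05, and 1, Lcn2, with limma-voom) and by 0.267% of all genes. The 4 simple comparisons share libraries, so their results are given side by side and not as support for each other.

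**Figure D2:**
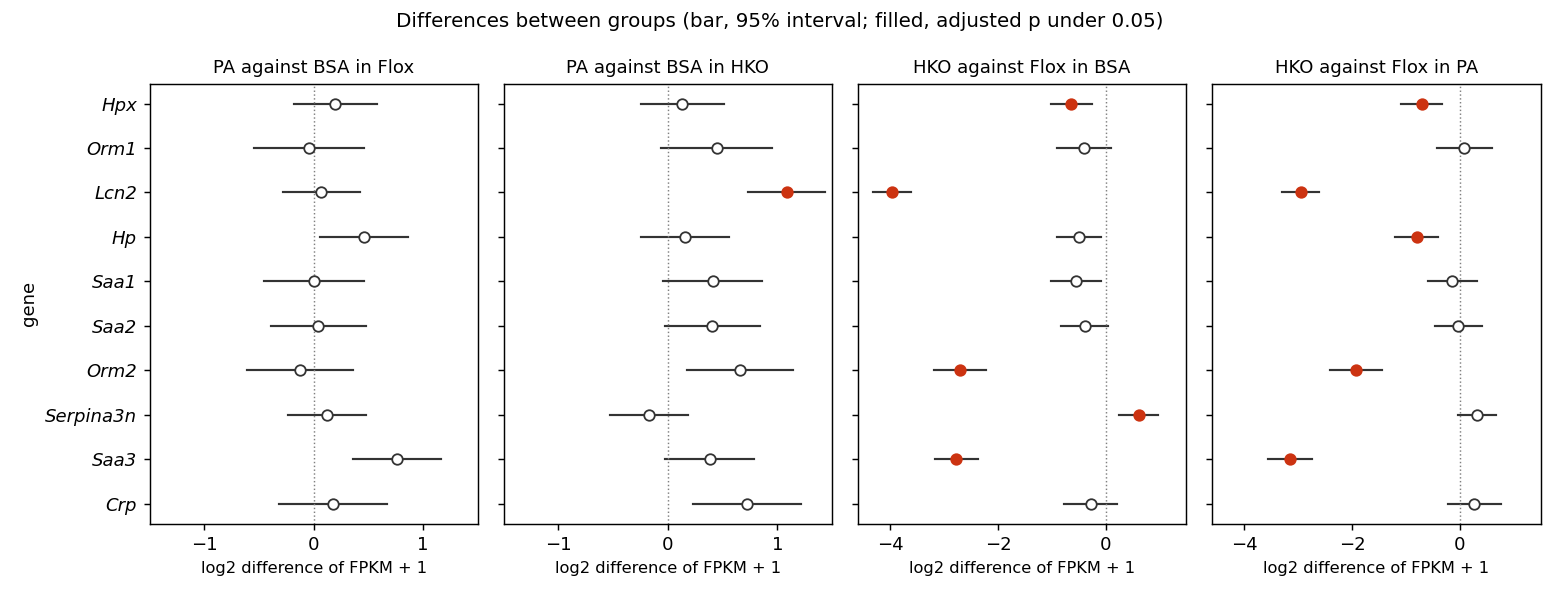
Log2 difference on the log2(FPKM + 1) scale (horizontal axis) of each member in the 4 comparisons, with 95% confidence intervals of the limma fit (filled points passed at an adjusted p under 0.05). The Lcn2 difference between genotypes is -3.97 in BSA and -2.96 in PA, and Serpina3n is the member that rose in BSA.

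Lcn2 encodes lipocalin 2, a secreted protein that binds bacterial siderophores and so withholds iron from bacteria. It lies at chr2:32384633-32388252 on the minus strand (ENSMUSG00000026822). The 3 libraries of each group, given in the order of their numbers here and below, held 1633, 1494 and 1763 FPKM in Flox BSA and 1539, 1674 and 1931 FPKM in Flox PA. HKO BSA held 97.8, 92.6 and 120.1 FPKM, and HKO PA 266, 205 and 193 FPKM. Every HKO library was far below every Flox library, and within HKO every PA library was above every BSA library. Lcn2 fell by 3.97 on the log2 scale (SE 0.16, adjusted p 2.844e-10) in HKO in BSA, a mean level 15.8-fold higher in Flox. In PA it fell by 2.96 (SE 0.16, adjusted p 5.897e-09). PA raised Lcn2 in HKO by a log2 difference of 1.08 (SE 0.16, adjusted p 0.002843), 2.14-fold on the means, and in Flox the difference was 0.07 (SE 0.16, adjusted p 0.8548). The interaction of 1.01 (95% interval 0.52 to 1.51) had an adjusted p of 0.07103, and the rise in HKO did not pass in a fit restricted to HKO (adjusted p 0.0749). In that restricted fit 39 genes passed over the whole table, against 286 with all 12 libraries. Lcn2 ranked 561 among protein-coding genes in HKO BSA and 304 in HKO PA. The summed macrophage markers also differed within HKO, at 86.1 to 120.9 FPKM in BSA and 127 to 158 FPKM in PA, and their part in the rise was not tested.

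Saa1, Saa2 and Saa3 encode serum amyloid A proteins, small apolipoproteins that ride on high-density lipoprotein. In mice Saa1 and Saa2 are made chiefly by the liver, and Saa3 is also made by macrophages and fat. Saa3 read 71.6, 87.8 and 63.1 FPKM in Flox BSA, 116, 138 and 123 FPKM in Flox PA, 12.2, 8.49 and 9.38 FPKM in HKO BSA, and 16.7, 10 and 13.8 FPKM in HKO PA. Every Flox library was above every HKO library, and in Flox every PA library was above every BSA library. In HKO, Saa3 fell by 2.77 on the log2 scale (SE 0.19, adjusted p 4.416e-08) in BSA and by 3.15 (SE 0.19, adjusted p 1.449e-08) in PA. Between PA and BSA in Flox the log2 difference was 0.76 (95% interval 0.36 to 1.17, adjusted p 0.0557), and in a fit restricted to Flox the adjusted p was 0.00622. Without both HKO libraries numbered 1 it was 0.00527. The log2 difference was 0.76 in both settings too, and genes passing over the whole table were 1549 and 1377, against 215. In HKO the PA difference in Saa3 was 0.38 (adjusted p 0.2695).

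Saa1 stood at 841, 883 and 839.9 FPKM in Flox BSA, 841, 919 and 809.7 FPKM in Flox PA, 816, 427 and 571 FPKM in HKO BSA, and 956, 627 and 776 FPKM in HKO PA. Saa2 read 729, 745 and 717 FPKM, then 738, 797 and 723 FPKM in the Flox groups, and 757, 417 and 549 FPKM in HKO BSA and 925, 610.2 and 717 FPKM in HKO PA. In both genes the HKO libraries numbered 1 held the highest HKO value of their group, and the HKO PA libraries overlapped with Flox PA. Neither gene passed in HKO against Flox: the log2 differences in BSA were -0.55 (95% interval -1.01 to -0.09, adjusted p 0.08689) for Saa1 and -0.39 (adjusted p 0.2054) for Saa2. Without HKO BSA library 1 both passed, at -0.79 (adjusted p 0.00683) for Saa1 and -0.61 (adjusted p 0.0245) for Saa2. Both also passed in BSA under quantile normalization (adjusted p 0.00191 and 0.00853) and limma-voom (0.0085 and 0.0251). In PA they were -0.14 (adjusted p 0.6256) and -0.02 (adjusted p 0.9379), and under quantile normalization both passed, at -0.57 (adjusted p 0.00669) and -0.45 (adjusted p 0.02014). Saa1 and Saa2 coding transcripts are 87.3% identical, and 14.8% and 9.12% of their 50-base windows occur in another gene of these families, so reads could be split between them.

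The ratio of Saa3 to Saa1 was lower in HKO in every library, at 0.015 to 0.0199 against 0.0752 to 0.152 in Flox, where the PA libraries (0.138 to 0.152) lay above the BSA libraries (0.0752 to 0.0993). Saa2 to Saa1 spanned a narrow range, 0.844 to 0.893 in Flox and 0.924 to 0.978 in HKO, with no overlap between genotypes.

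Orosomucoids are heavily glycosylated plasma proteins that carry basic drugs and lipids. Orm2 read 324, 316 and 430.1 FPKM in Flox BSA, 253, 319 and 416 FPKM in Flox PA, 41.0, 56.4 and 64.7 FPKM in HKO BSA, and 109.5, 74.8 and 73.8 FPKM in HKO PA. No HKO library reached any Flox library, and all 3 HKO PA libraries were above all 3 HKO BSA libraries. Orm2 fell in HKO by 2.71 on the log2 scale (SE 0.23, adjusted p 4.235e-07) in BSA and by 1.92 (SE 0.23, adjusted p 1.933e-05) in PA. The PA difference in HKO was 0.66 (95% interval 0.18 to 1.15, adjusted p 0.1251). Orm1 held 1616, 1514 and 2058 FPKM in Flox BSA, 1440, 1630 and 1959 FPKM in Flox PA, 962, 1428 and 1591 FPKM in HKO BSA, and 2423, 1555 and 1465 FPKM in HKO PA. All 4 groups overlapped, and the log2 differences between genotypes were -0.40 (adjusted p 0.2655) in BSA and 0.09 (adjusted p 0.7957) in PA. In BSA Orm1 passed as lower in HKO under quantile normalization (-0.74, adjusted p 0.005154) and limma-voom (-0.58, adjusted p 0.04721). In PA it did not pass, and its sign turned under both (-0.35 and -0.08). The ratio of Orm2 to Orm1 was 0.176 to 0.212 in the Flox libraries and 0.0395 to 0.0504 in the HKO libraries. Their coding transcripts are 91% identical, with 20.4% of the 50-base windows of Orm1 and 21.8% of those of Orm2 found in a related gene, so these values carry the limits of read assignment.

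**Figure D3:**
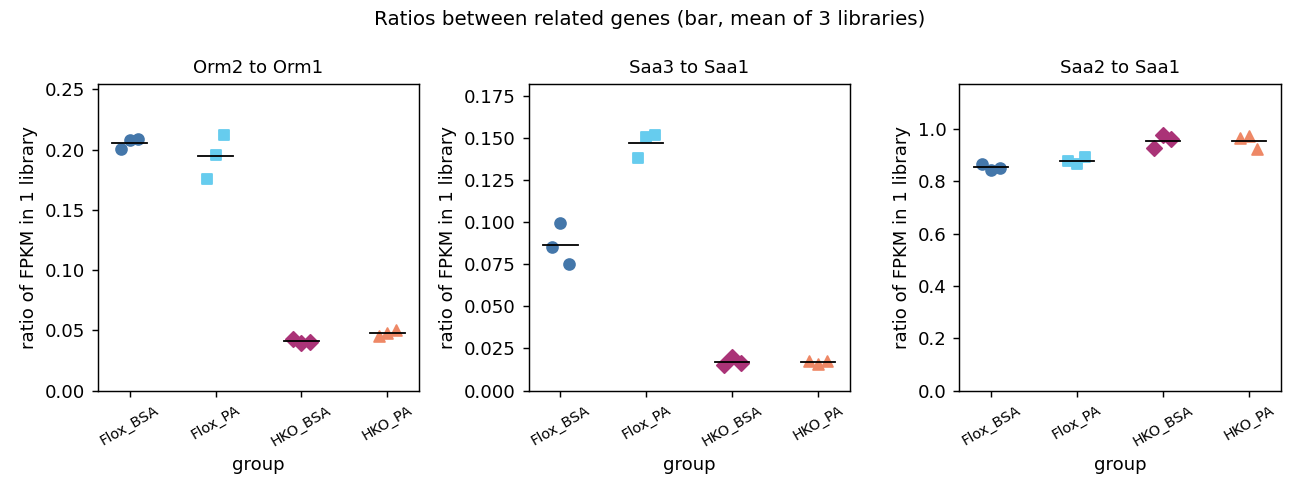
FPKM ratios (vertical axes from 0) of Orm2 to Orm1, Saa3 to Saa1 and Saa2 to Saa1 in each library (points), by group with the mean (bar). Orm2 to Orm1 is 0.176 to 0.212 in Flox and 0.0395 to 0.0504 in HKO, and Saa2 to Saa1 differs far less between genotypes.

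Haptoglobin binds free hemoglobin and hemopexin binds free heme, so that both guard against iron-driven oxidation and iron loss. Hp (ENSMUSG00000031722, chr8:109575128-109579172, minus strand) read 1063, 1058 and 1130 FPKM in Flox BSA, 1165, 1759 and 1611 FPKM in Flox PA, 934, 686 and 712 FPKM in HKO BSA, and 977, 717 and 897 FPKM in HKO PA. All HKO libraries lay below all Flox libraries of the same treatment, and in Flox the PA libraries lay above the BSA libraries. In PA, Hp fell in HKO by 0.80 on the log2 scale (SE 0.19, adjusted p 0.005234). In BSA the difference was -0.49 (adjusted p 0.08046), and it passed without HKO BSA library 1 (-0.63, adjusted p 0.0262), under quantile normalization (adjusted p 0.00946) and with limma-voom (adjusted p 0.00583). The PA difference in Flox was 0.46 (95% interval 0.06 to 0.86, adjusted p 0.2569).

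Hpx (ENSMUSG00000030895, chr7:105591613-105600137, minus strand) read 9319, 9081 and 9654 FPKM in Flox BSA and 9870, 11409 and 10957 FPKM in Flox PA. HKO BSA held 7382, 5002 and 5862 FPKM, and HKO PA 7646, 5906 and 6305 FPKM. No HKO library reached a Flox library. Hpx fell in HKO by 0.64 (SE 0.18, adjusted p 0.02068) on the log2 scale in BSA and by 0.70 (SE 0.18, adjusted p 0.008267) in PA. The call was lost with no filter on low genes (adjusted p 0.0904 in BSA and 0.0513 in PA). In BSA it was also lost when Flox BSA library 1, 2 or 3, or HKO BSA library 2 or 3 was left out (adjusted p 0.0616 to 0.0719), with log2 differences of -0.66 to -0.51. Genes passing over the whole table were 1304 to 1856 in those settings, against 1994 with all 12 libraries. Hp to Hpx was 0.114 to 0.154 in Flox and 0.121 to 0.142 in HKO, with overlap.

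Serpina3n encodes a serine protease inhibitor of the antichymotrypsin type, and it moved the other way. It lies at chr12:104406729-104414329 on the plus strand (ENSMUSG00000021091). Its levels were 156, 143 and 182.5 FPKM in Flox BSA, 153, 165 and 209 FPKM in Flox PA, 227, 276 and 234 FPKM in HKO BSA, and 181, 234 and 243 FPKM in HKO PA. In BSA all HKO libraries were above all Flox libraries, and in PA they overlapped. Serpina3n rose in HKO by a log2 difference of 0.61 (SE 0.17, adjusted p 0.01762) in BSA, and the difference in PA was 0.32 (adjusted p 0.147). The rise did not pass under quantile normalization (0.40, adjusted p 0.156) or limma-voom (0.44, adjusted p 0.105), or without Flox BSA library 1 or 2 or HKO BSA library 2 (adjusted p 0.0596 to 0.0916). Under those 2 scalings the split of calls over the 10 members in BSA was 0 higher and 8 lower, in place of 1 and 4. Of the 9743 genes tested, 2312 passed with quantile normalization and 1998 with limma-voom, against 1994. These whole-table counts were not split by direction, so the share of all genes that fell is not given. Limma-voom, which does not use the authors' library size, moved the median log2 difference of all genes between genotypes by -0.17 in BSA, to -0.13. In PA the median moved by -0.17, to -0.16.

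Crp, a pentraxin that binds phosphocholine on damaged cells and bacteria, had the lowest mean of the members in both Flox groups. In both HKO groups the mean of Saa3 was lower than that of Crp. The Crp gene lies within chr1:172698055-172833031 on the plus strand (ENSMUSG00000037942), a span that also holds a pseudogene at 0.0237 FPKM. Crp read 16.3, 12.6 and 18.6 FPKM in Flox BSA, 14.9, 17.9 and 21.04 FPKM in Flox PA, 8.89, 15.6 and 14.7 FPKM in HKO BSA, and 28.4, 20.8 and 16.9 FPKM in HKO PA. The genotypes overlapped in both treatments, and in HKO every PA library was above every BSA library. The PA difference in HKO was 0.72 on the log2 scale (95% interval 0.23 to 1.21, adjusted p 0.108), and without HKO PA library 3 it passed (0.89, adjusted p 0.0428). The genotype differences were -0.28 (adjusted p 0.45) in BSA and 0.27 (adjusted p 0.3854) in PA.

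The spread of the members between libraries of a group was described by the coefficient of variation, the SD as a share of the mean. The median coefficient of variation over the 10 members was 10.4% in Flox BSA and 13.6% in Flox PA, and 21.1% in HKO BSA and 21.2% in HKO PA. HKO PA library 1 held the highest value of its group for 9 members, all but Serpina3n, for which it was the lowest. The authors' library size for it was 13.4 M, against 15.8 M reads in genes, which raises its FPKM for every gene. As a share of reads in genes the members took 1.78% there, and 1.56% and 1.67% in HKO PA libraries 2 and 3. The part of this scaling in the spread was not tested. HKO BSA library 1 held the highest value for 5 members. The gene lists below were therefore also counted without both HKO libraries numbered 1. In that setting more genes passed over the whole table too. For HKO against Flox they went from 1994 to 3615 in BSA and from 3475 to 3700 in PA. For PA against BSA they went from 215 to 1377 in Flox and from 286 to 676 in HKO.

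Among other positive acute phase genes, hepcidin, the interleukin-1 receptor antagonist and others fell in HKO, and some rose. Of 29 tested of a list of 30 (without the 10 members), 1 rose and 12 fell in BSA, and 4 rose and 13 fell in PA. These are 44.8% of the list in BSA and 58.6% in PA, against 20.5% and 35.7% of all genes. Without both HKO libraries numbered 1, the counts were 6 and 18 in BSA and 4 and 15 in PA. The median log2 difference of the list was -0.34 in BSA, against 0.04 over all genes tested. Hamp, which encodes the iron hormone hepcidin, averaged 37.9 ± 9.23 FPKM in Flox BSA and 5.29 ± 3.50 FPKM in HKO BSA (log2 difference -2.76, adjusted p 3.925e-05). It rose with PA in both genotypes, by 2.84 (adjusted p 0.0007614) in Flox and 3.84 (adjusted p 4.58e-05) in HKO. Il1rn, the interleukin-1 receptor antagonist, fell by 2.20 (adjusted p 2.506e-08) in HKO in BSA and rose with PA in HKO by 1.12 (adjusted p 0.0008241). Lbp, which hands lipopolysaccharide to its receptor, fell by 1.60 in HKO in PA (adjusted p 8.642e-07). Serpina3g had the smallest adjusted p of the list between genotypes. It averaged 12.6 ± 1.53 FPKM in Flox BSA and 0.466 ± 0.106 FPKM in HKO BSA. The fall in HKO was 3.21 in BSA (adjusted p 9.3e-10) and 2.17 in PA (adjusted p 7.544e-08). With PA in Flox, Serpina3g fell by 0.85 (adjusted p 0.009718). The genes of the list that rose in HKO are named after their values were seen. In BSA this was Agt (0.60, adjusted p 0.01436). In PA they were Serpina3k (2.14, adjusted p 0.001167), Serpina3m (1.72, adjusted p 0.002081), Fgg (1.43, adjusted p 0.01401) and Fgb (0.87, adjusted p 0.03087). With PA, 4 of the list rose and 1 fell in Flox, and 5 rose and 1 fell in HKO. That is 17.2% and 20.7% of the list, against 2.21% and 2.94% of all genes. Without both HKO libraries numbered 1 the counts became 10 and 5 in Flox and 7 and 2 in HKO. Genes passing over the whole table then rose from 215 to 1377 in Flox and from 286 to 676 in HKO.

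Negative acute phase proteins, tested for 16 of 16, showed rises between genotypes: 9 rose and none fell in HKO in BSA, and 11 rose and 1 fell in PA. That is 56.2% and 75% of the list, against 20.5% and 35.7% of all genes. Without both HKO libraries numbered 1 the counts were 12 and 0 in BSA and 11 and 3 in PA. Igf1, the growth factor that circulates from the liver, averaged 11.1 ± 0.893 FPKM in Flox BSA and 36.8 ± 4.53 FPKM in HKO BSA (log2 difference 1.64, adjusted p 1.137e-05). Rbp4, the plasma carrier of retinol, averaged 721 ± 46.2 and 1612 ± 176 FPKM (1.16, adjusted p 9.236e-05). PA moved 0 of 16 by limma in either genotype (1 in Flox and 3 in HKO at an unadjusted p under 0.05, and 0 with limma-voom in both). Over all genes 2.21% passed in Flox and 2.94% in HKO. Without both HKO libraries numbered 1, 4 of the 16 fell with PA in Flox and 2 fell in HKO.

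The genes of the inducing cytokines interleukin-1 and TNF fell in HKO. Of 27 tested genes of interleukin-1, TNF and NF-kB signalling, none rose and 11 fell in BSA, and 1 rose and 15 fell in PA. These are 40.7% and 59.3% of the list, against 20.5% and 35.7% of all genes. The counts were 1 and 16 in each when both HKO libraries numbered 1 were left out. Il1b, the gene of interleukin-1 beta, averaged 12.9 ± 2.19 FPKM in Flox BSA, 12.8 ± 1.29 FPKM in Flox PA, 0.537 ± 0.103 FPKM in HKO BSA and 1.96 ± 0.839 FPKM in HKO PA. It fell in HKO by 3.16 on the log2 scale in BSA (adjusted p 6.519e-09) and rose with PA in HKO by 0.91 (adjusted p 0.01659). Tnf rose with PA in both genotypes, by 0.77 in Flox (adjusted p 0.01149) and 0.78 in HKO (adjusted p 0.009784). In this list 5 genes rose with PA in HKO, among them Nfkbiz, whose protein steers NF-kB to a subset of its targets (0.75, adjusted p 0.003286), and 1 in Flox. That is 18.5% of the list in HKO and 3.7% in Flox, against 2.94% and 2.21% of all genes. Leaving out both HKO libraries numbered 1, 8 rose and 1 fell in HKO and 4 rose and 1 fell in Flox, and over all alternatives run the number that rose was 0 to 8 in HKO and 0 to 5 in Flox.

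In the interleukin-6 family, 19 of 25 genes were tested, and Il6 itself, named after its values were seen, was too low to test at 0.0087 to 0.212 FPKM on the group means. In HKO, 2 rose and 5 fell in BSA, and 1 rose and 6 fell in PA. Each is 36.8% of the list, above the 20.5% of all genes in BSA and near the 35.7% in PA. The BSA counts were 1 and 8 without both HKO libraries numbered 1. Socs3, a feedback inhibitor induced by STAT3, averaged 11.7 ± 0.291 FPKM in Flox BSA and 1.65 ± 0.737 FPKM in HKO BSA and fell by 2.29 on the log2 scale (adjusted p 2.61e-07). It rose with PA in Flox by 0.85 (adjusted p 0.0283). Stat3, the transcription factor itself, fell in HKO by 0.998 in PA (adjusted p 0.004057).

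Among 15 tested C/EBP and other hepatocyte transcription factors, 4 rose and 1 fell in HKO in BSA, and 2 rose and 2 fell in PA. That is 33.3% of the list in BSA, against 20.5% of all genes, and 26.7% in PA, below the 35.7% of all genes. Cebpd, a C/EBP factor that acute phase stimuli induce, averaged 6.93 ± 0.467 FPKM in Flox BSA, 14.2 ± 3.11 FPKM in Flox PA, 3.29 ± 1.05 FPKM in HKO BSA and 5.08 ± 1.48 FPKM in HKO PA. It fell in HKO by 0.91 in BSA (adjusted p 0.006397) and by 1.33 in PA (adjusted p 0.0003114), and rose with PA in Flox by 0.92 (adjusted p 0.0363). Creb3l3, a membrane-bound liver factor that takes part in the acute phase response, rose with PA in both genotypes, by 1.51 in Flox (adjusted p 0.0003276) and 1.67 in HKO (adjusted p 8.974e-05), and was higher in HKO in BSA by 0.95 (adjusted p 0.0007558). Of 9 tested glucocorticoid receptor genes and targets, 3 rose and none fell in HKO in BSA, among them Hsd11b1, which regenerates active glucocorticoid (0.96, adjusted p 0.0005654). In PA 2 rose and 2 fell, the latter Sgk1, a kinase gene (-0.52, adjusted p 0.005365), and Per1, a clock gene (-0.65, adjusted p 0.009381), and the median of the list was -0.02. These 9 genes passed at 33.3% in BSA and 44.4% in PA, against 20.5% and 35.7% of all genes.

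**Figure D4:**
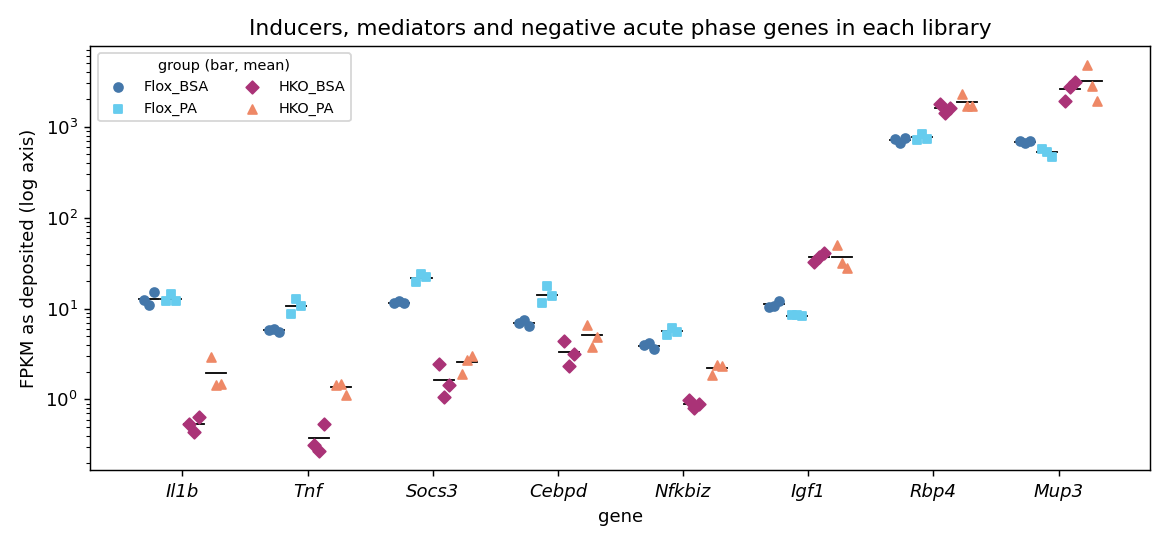
FPKM of inducers, regulators and negative acute phase genes (vertical log axis), by library (points) and group mean (bar). Il1b and Socs3 are low in HKO, whereas Rbp4 and Igf1 are higher in HKO than in Flox in BSA.

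Of 14 tested receptor and clearance genes of these proteins, 1 rose and 8 fell in HKO in BSA, and none rose and 8 fell in PA. These are 64.3% and 57.1% of the list, against 20.5% and 35.7% of all genes. Fpr2, a receptor on myeloid cells that binds serum amyloid A, averaged 29.7 ± 3.18 FPKM in Flox BSA and 0.696 ± 0.332 FPKM in HKO BSA (log2 difference -4.19, adjusted p 1.791e-09). Fcgr1, an Fc receptor that also binds C-reactive protein, fell by 4.08 (adjusted p 1.543e-10). Both are genes of myeloid cells. The summed macrophage markers were 21.8-fold higher in Flox than in HKO in BSA and 15.0-fold higher in PA, and all 14 that were tested fell in HKO in both. Of the neutrophil markers, 8 of 12 were at 0 in all 3 HKO BSA libraries, S100a9, Mpo and Elane among them. In Flox BSA, however, 9 of the 12 also averaged under 1 FPKM. Only 2 of the 12 were tested, and S100a9, Mpo and Elane were too low to test. Summed endothelial markers were 32.7 to 34.8 FPKM in Flox BSA and 19.8 to 21.1 FPKM in HKO BSA. Summed hepatocyte markers were 8407 to 9203 FPKM in Flox BSA and 11170 to 21082 FPKM in HKO BSA. Of the 11 tested, 4 rose and none fell (36.4%, against 20.5% of all genes), with a median log2 difference of 0.23. Albumin (Alb), named after its values were seen, carried much of the sum, at 4135 to 4521 FPKM in Flox BSA and 4091, 15614 and 14048 FPKM in HKO BSA, and did not pass (adjusted p 0.06441). The part of these other cells in the fall of Lcn2, Saa3 and Orm2 was not tested.

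**Figure D5:**
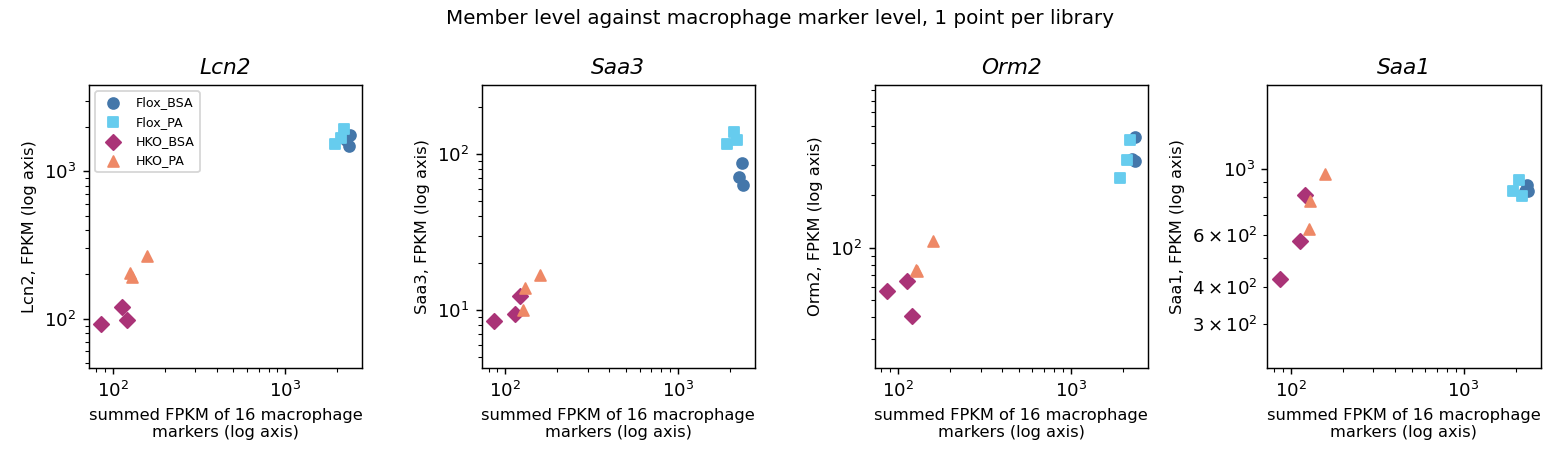
FPKM of Lcn2, Saa3, Orm2 and Saa1 against the summed FPKM of 16 macrophage markers, 1 point per library, both axes on a log scale. The 6 Flox libraries (1931 to 2365 FPKM of markers) and the 6 HKO libraries (86.1 to 158 FPKM) form separate clusters, so no correlation is given.

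The genes whose pattern over the 12 libraries was closest to each member, by Pearson r of log2(FPKM + 1), fell in different places. For Lcn2 they were Fcer1g (r = 0.997), a signalling chain of Fc receptors in myeloid cells, and Treml4 (r = 0.996). For Saa3 they were H2-T10 (r = 0.996) and Slc15a3 (r = 0.993). For Orm2 they were Il18bp (r = 0.989), which neutralizes interleukin-18, and Il18 itself (r = 0.988). The r of these 3 members is largely the gap between genotypes, which the libraries share. Hp was closest to Cebpd (r = 0.966) and Tgm1 (r = 0.959), and Hpx to Ifitm2 (r = 0.980) and Rab20 (r = 0.979). Saa1 was closest to Psmb10 (r = 0.965), an immunoproteasome subunit, and Saa2 to Prdx5 (r = 0.976). Orm1 was closest to Cd302 (r = 0.950) and Apcs (r = 0.933), which encodes serum amyloid P and is another acute phase pentraxin of mice. Serpina3n was closest to Mcm7 (r = 0.961) and Crp to Nqo1 (r = 0.956). These values describe likeness over shared libraries and carry no test.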

How the data were processed

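RNA-seq of primary hepatocytes was deposited by the authors as 1 table of FPKM values, per the file headers, with genes in rows and 1 column per library. Per the labels' protocols, libraries were made with an NEBNext Ultra kit. The builds GRCm38 and mm10 are named in the submitters' processing notes. The sources used here name no aligner, counter or annotation release. The authors' gene length equals the exon union of GENCODE M21 for all 10 members. Multiplied by that length, 100% of values up to 1000 reads lay within 0.01 of whole reads in every library.

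The 9743 genes averaging 1 FPKM or more, all 10 members among them, were fitted as log2(FPKM + 1) with limma 3.58.1 (R 4.3.3), group means and a variance prior with a trend. Differences on this scale understate changes of low genes. In all, 5 comparisons were made, two-sided, with Benjamini-Hochberg adjustment over all genes tested. Alternatives were another pseudocount, no filter, quantile normalization, limma-voom on computed reads, other fits and leaving out each library. The members and lists were chosen with earlier results of these data known. Named genes beyond members, G3bp1 and cell markers are up to 4 per list and comparison with the smallest adjusted p, and the 2 nearest genes per member. Those marked as named after their values were seen come on top.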

Additional observations from a re-analysis of the deposited data

How the results depend on the processing

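The falls of Lcn2, Saa3 and Orm2 in HKO passed under all 15 alternatives run for each, in BSA and in PA. Over all alternatives, the members' results numbered 830, of which 769 kept direction and side of the threshold, 13 no longer passed, 25 newly passed and 23 changed sign. None of those 23 passed the test in either setting. For PA against BSA in Flox, the log2 difference of Saa1 became -0.022 with median ratio scaling and -0.034 with limma-voom. In HKO, quantile normalization turned Hp to -0.094 and Hpx to -0.263. Orm1 in HKO against Flox in PA became -0.349 with quantile normalization, -0.076 with limma-voom and -0.140 without both HKO libraries numbered 1. Leaving out single libraries gave, for PA in Flox, -0.050 to 0.041 for Saa1, -0.019 to 0.145 for Lcn2, -0.162 to 0.088 for Orm1, -0.310 to 0.046 for Orm2 and -0.006 to 0.220 for Serpina3n. For HKO against Flox in PA it gave -0.294 to 0.010 for Saa1, -0.186 to 0.114 for Saa2 and -0.140 to 0.223 for Orm1, and for the interaction of Hpx -0.198 to 0.083. Where PA was compared with BSA in Flox, the count of members that passed was 0 and became 1 with limma-voom, with only the compared groups in the fit and without both HKO libraries numbered 1. Genes passing over the whole table were 215, and 137, 1549 and 1377 in those settings. In HKO the count of members was 1 and became 0 with only the compared groups in the fit, and leaving out single libraries gave 1 to 2. Genes passing over the whole table were 286, and 39 with only the compared groups in the fit. They were 788 without HKO PA library 3, the setting that gave 2 members. HKO against Flox in BSA had 5 members and became 8 with quantile normalization, with limma-voom and without both HKO libraries numbered 1, and leaving out single libraries gave 3 to 8. Genes passing over the whole table there were 1994, and 2312, 1998 and 3615 in those settings. In PA the count of members was 5 and stayed within 1.5 times of that. For the interaction the count was 0, and 1 with quantile normalization and with limma-voom, with 0 to 1 on leaving out single libraries. Genes passing over the whole table were 26, and 58 and 48 with those 2 scalings. Without HKO PA library 3, which also gave 1 member, they were 261. Limma-voom took its library sizes from the computed reads and not from the authors' size. The part of this in the moves, and any other cause, was not tested. A replicate block by number gave 0, 1, 5, 5 and 0 in the 5 comparisons, and the replicate block by genotype and number gave 1 for PA in Flox (Saa3, adjusted p 0.0337). The numbers are not taken to pair the libraries: over 18 same-numbered pairs, the deviations from the group means correlated at -0.48 to 0.36, and over 0.1 in 10, and not every library correlated best with its own number. There were 3 libraries a group, and HKO library 1 was apart from the others for several members. Between genotypes in BSA, the calls of Saa1, Saa2, Hp, Hpx and Serpina3n changed when single libraries were left out. Those of Saa1, Saa2, Orm1, Hp and Serpina3n also changed with the scaling. Leaving out 1 library in that comparison also moved the genes passing over the whole table, from 1994 to between 1304 and 2382. The part of this general change in the members' calls was not tested.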
